A study of Mus musculus with 6 samples.

Results

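Transcripts of the CCN genes Ccn1 to Ccn5 and of 5 further genes known as direct targets of the transcriptional coactivator YAP (Ankrd1, Amotl2, Axl, Ajuba and Ccdc80) were measured in mouse colon with and without Islr. The 10 genes were chosen by name, and every probe whose RefSeq accession led to one of them was taken, which gave 12 of 56605 probes; Axl and Ccn4 had a pair each. These are 10 of 23462 genes that could be named on the array. The samples were colon RNA of 6 male mice, 3 controls and 3 labelled Islr knockout, with 1 single-colour Agilent array per mouse. All 6 mice, controls included, had received 3.5% dextran sulfate sodium in the drinking water for 5 days and then recovered for 1 day, according to the sample source, whereas the treatment field of the labels states no treatment. Dextran sulfate sodium is a polysaccharide that injures the colonic epithelium. The labels give no strain, age or way in which Islr was deleted. The series' design text speaks of samples separated by flow into TRIzol, which the tissue label, colon, does not explain; markers of epithelium, smooth muscle, fibroblasts, endothelium and macrophages were all detected, as described further on.

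YAP and its relative TAZ (Wwtr1) are held in the cytoplasm when the LATS kinases of the Hippo pathway phosphorylate them. When they enter the nucleus they bind DNA through TEAD factors. Several of the genes studied here are among those they are best known to switch on. Ccn3, Ccn4 and Ccn5 were taken as members of the CCN family. CCN proteins are secreted into the matrix, where they bind integrins and heparan sulfate proteoglycans and adjust adhesion, wound repair and fibrosis. In the injured colon, YAP is known to act in the regenerating epithelium and in the stroma.

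TEAD is known to bind the motif CATTCC, which reads as GGAATG on the other strand. RefSeq promoter windows of build GRCm38.p6 were at hand for 5 of the 10 genes (Ccn1, Ankrd1, Amotl2, Axl and Ajuba) and not for Ccn2, Ccn3, Ccn4, Ccn5 and Ccdc80. The windows are shown because the genes that have one are known as YAP targets, and the windows give the motif in its place. Each is printed 5′ to 3′ on the strand of the gene, with the motif in capitals. The first is the whole 250 bases before the annotated start; the others are stretches with 20 bases on each side of the motif, or fewer at the end of the window. They lie at chr3:145649986-145650235 (minus strand), chr19:36119942-36120074 (minus), chr9:102717719-102717764 (plus), chr7:25788941-25788983 (minus) and chr14:54577800-54577867 (minus), in the order given.
Ccn1: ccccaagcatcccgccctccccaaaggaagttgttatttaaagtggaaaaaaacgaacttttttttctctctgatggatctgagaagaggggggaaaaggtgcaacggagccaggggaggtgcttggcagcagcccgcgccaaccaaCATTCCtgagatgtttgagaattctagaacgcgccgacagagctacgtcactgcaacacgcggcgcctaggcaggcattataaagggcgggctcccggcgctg
Ankrd1: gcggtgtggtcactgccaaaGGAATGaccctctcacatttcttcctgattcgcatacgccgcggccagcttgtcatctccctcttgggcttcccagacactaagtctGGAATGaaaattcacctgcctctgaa
Amotl2: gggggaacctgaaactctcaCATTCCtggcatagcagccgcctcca
Axl: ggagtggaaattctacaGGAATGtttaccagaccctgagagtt
Ajuba: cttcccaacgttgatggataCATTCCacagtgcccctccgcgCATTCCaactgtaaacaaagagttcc

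All 5 windows held the motif on one strand or the other, against 12.6% of 32851 promoter windows of the same 250 bases. The match began 103 bases before the start of Ccn1, 65 before that of Amotl2 and 233 before that of Axl. Ankrd1 and Ajuba held 2 matches each, at 210 and 123 bases and at 186 and 164 bases, and 1.02% of all windows held 2 or more. Neither the CArG box of the factor SRF (1.47% of all windows) nor the AP-1 motif TGANTCA (6.75%) was found in any of the 5. The motifs are a description of these letters: the arrays measured no binding.

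A value below is the log2 of the spot's processed signal relative to the 75th percentile of its array, so 0 is that percentile and values of different probes are not comparable as levels. A difference is knockout minus control on the log2 scale. A probe is called where its adjusted p is under 0.05 in limma, adjusted over all 35351 probes tested. The scanner software marks spots as outliers, and such spots were left out of the fit (3.26% to 16.0% of the spots of an array); this touched 4 of the 12 probes, and their differences are also given with the marked spots kept. Of all probes tested 3.97% were called, made up of 2.42% lower and 1.55% higher in the knockout. Islr itself separated the genotypes: its signal was 1.57, 1.24 and 1.21 in the controls and -1.40, -0.93 and -1.31 in the knockouts, a difference of -2.44 with the marked spot of control replicate 1 left out (SE 0.21, adjusted p = 0.0171 in limma). The 75th percentile itself was 6353 to 7110.5 intensity units in the controls and 4911 to 5820.0 in the knockouts, and the controls filled one row of the slide and the knockouts its other row, so row and genotype cannot be told apart. With 3 against 3 arrays an exact two-sided permutation test cannot go below p = 0.1.

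Most of these genes had a lower signal in the knockout, and few of the differences passed the threshold. Of the 12 probes 10 could be tested, standing for 8 genes, and all 10 were lower in the knockout. Of these 2 were called, the single probe of Ccdc80 and the dimmer probe of Axl, where 2.42% of all probes were called lower; with marked spots kept, 2 of 11 were called, where 2.89% of all probes were called lower and 4.85% in either direction. An unadjusted p under 0.05 was reached by 8 of the 10, against 14.1% of all probes lower and 26.8% in either direction. With marked spots kept, every knockout lay below every control in 8 of the 12 probes, which stand for 6 genes, against 17.6% of the 40172 probes tested in that way and 16.4% of the 36662 that were well above background everywhere. The genes without such a separation were Ccn1, Ankrd1, Amotl2 and Ajuba. The counts of lower, unadjusted and separated probes include the dimmer Ccn4 probe and Ccn5. Both were well above background in the controls only and entered the test through the controls alone, so their direction followed from the filter. The median difference of the 8 genes tested, each by its brighter probe, was -0.80, beside 0.01 over all 16451 genes tested.

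**Figure D1:**
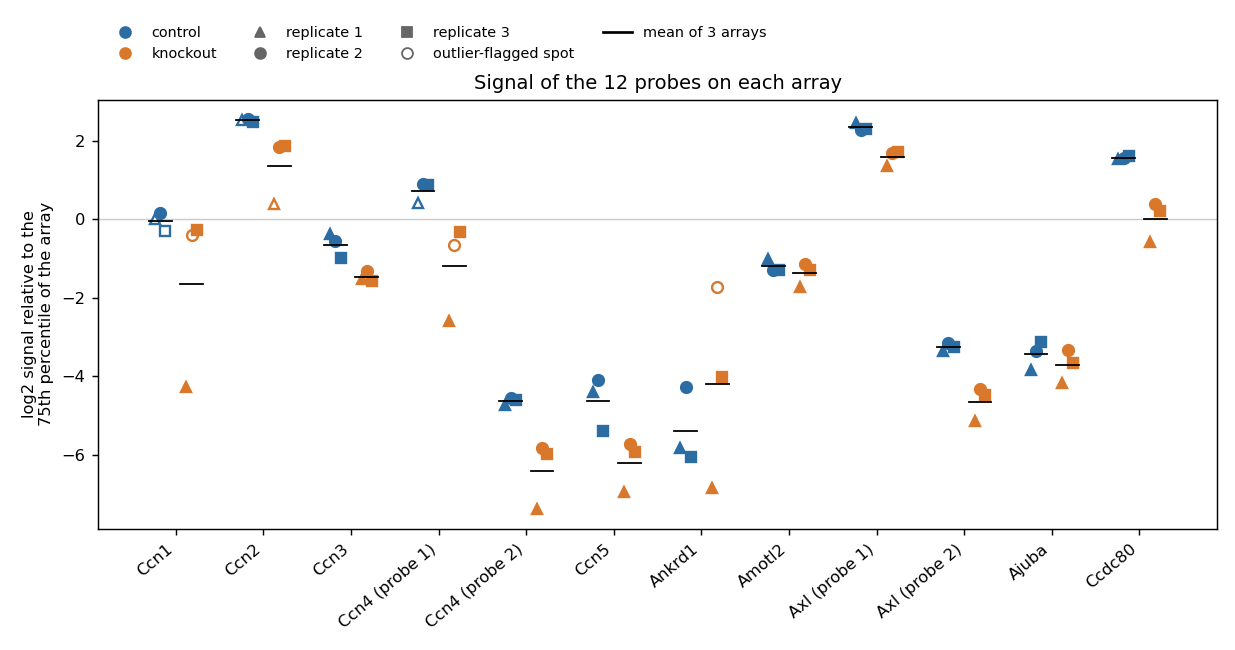
The y axis gives the log2 signal relative to the 75th percentile of the array for the 12 probes (x axis; levels of different probes are not comparable), with controls in blue, knockouts in orange, symbols for the replicates, open symbols for marked spots and black bars for the means of 3 arrays. Knockouts lie below controls without overlap for 8 probes, and replicate 1 is the lowest knockout at every probe but that of Ccn3. Among the 8, the dimmer Ccn4 probe and Ccn5 were well above background in the controls only.

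Among the secreted CCN proteins, Ccn2 (connective tissue growth factor), a mediator of fibrosis, had a signal of 2.52, 2.55 and 2.47 in the controls and 0.38, 1.83 and 1.86 in the knockouts. The groups did not overlap, and knockout replicate 1 lay far below the other 2. That spot and the one of control replicate 1 were marked as outliers. On the 4 arrays left, Ccn2 differed by -0.66 (SE 0.19, 95% interval -1.18 to -0.15, 2 arrays a group), short of the threshold at an adjusted p of 0.119 in limma. With all 6 arrays it differed by -1.16 (SE 0.40, adjusted p = 0.124 in limma; exact permutation p = 0.1). Without knockout replicate 1 it differed by -0.67 (adjusted p = 0.0887 in limma, marked spots kept), so that array alone moved the value by over 1.5 times.

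Ccn1 (Cyr61), which promotes cell adhesion and is induced rapidly by growth factors, gave -0.0049, 0.17 and -0.29 in the controls. The knockouts gave -4.27, -0.41 and -0.29, and the third of them overlapped the lowest control. Spots of control replicates 1 and 3 and knockout replicate 2 were marked, so the probe had too few usable values for the fit. With these spots kept the difference was -1.61 (SE 1.02, 95% interval -4.04 to 0.82, adjusted p = 0.352 in limma; exact permutation p = 0.2). It shrank to -0.30 without knockout replicate 1 (adjusted p = 0.411 in limma). The low value of that replicate was not marked by the scanner software and was well above background.

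Ccn4 (Wisp1), a CCN protein first found as a target of Wnt1, had a pair of probes that were both lower in every knockout. Its brighter probe read 0.40, 0.90 and 0.88 in the controls and -2.59, -0.66 and -0.34 in the knockouts. With the marked spots of control replicate 1 and knockout replicate 2 left out, the difference was -2.35 (SE 0.76, adjusted p = 0.141 in limma), and with them kept it was -1.92 (SE 0.57, adjusted p = 0.0924). Without knockout replicate 1 it was -1.23 (adjusted p = 0.0760 in limma, marked spots kept). The dimmer probe read -4.73, -4.56 and -4.59 in the controls and -7.39, -5.84 and -5.98 in the knockouts, where it was well above background on none of the 3 arrays. With the knockouts taken at the faintest signal that passed the background test, its mean signal was 1.83-fold higher in controls. This bound concerns the measured means and takes no account of the spread between arrays. The fitted difference was -1.78 (SE 0.41, adjusted p = 0.0609 in limma). It passed the threshold without knockout replicate 1 (-1.28, adjusted p = 0.0448 in limma). The probe entered the fit through the controls alone, so both p-values compare control signal with background and add nothing to the bound. For the bound, the dim group's level on an array was taken as the higher of its measured signal and the faintest signal there that still passed the background test.

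Ccn5 (Wisp2), the member of the family that lacks the C-terminal cystine knot, was dim in all samples. Its values were -4.41, -4.10 and -5.39 in the controls and -6.96, -5.73 and -5.92 in the knockouts. It too was well above background on all controls and on no knockout, so its signal was at least 1.83-fold higher in controls. The fitted difference was -1.57 (SE 0.44, adjusted p = 0.0876 in limma). With normexp background correction and quantile normalization it was -0.75 (adjusted p = 0.125), a smaller fold than that bound, which holds for the processed signal only. The dimmer Ccn4 probe was -0.83 on that scale (adjusted p = 0.0314). Both probes entered the fit through the controls alone, so these p-values compare control signal with background.

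Ccn3 (Nov), a relative that counteracts CCN2 in several settings, showed the same direction without the low value of knockout replicate 1. It read -0.39, -0.57 and -0.99 in the controls and -1.53, -1.33 and -1.58 in the knockouts, with no overlap. The difference was -0.83 (SE 0.20, 95% interval -1.31 to -0.36), a 1.78-fold lower signal that was not called (adjusted p = 0.0653 in limma). With an array left out the difference was -0.70 or lower in each of the 6 fits and was called in none (lowest adjusted p 0.0885 in limma). The sixth CCN gene, Ccn6, which was not among the 10, differed by -0.24 with overlapping groups (95% interval -1.04 to 0.55, adjusted p = 0.672 in limma).

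**Figure D2:**
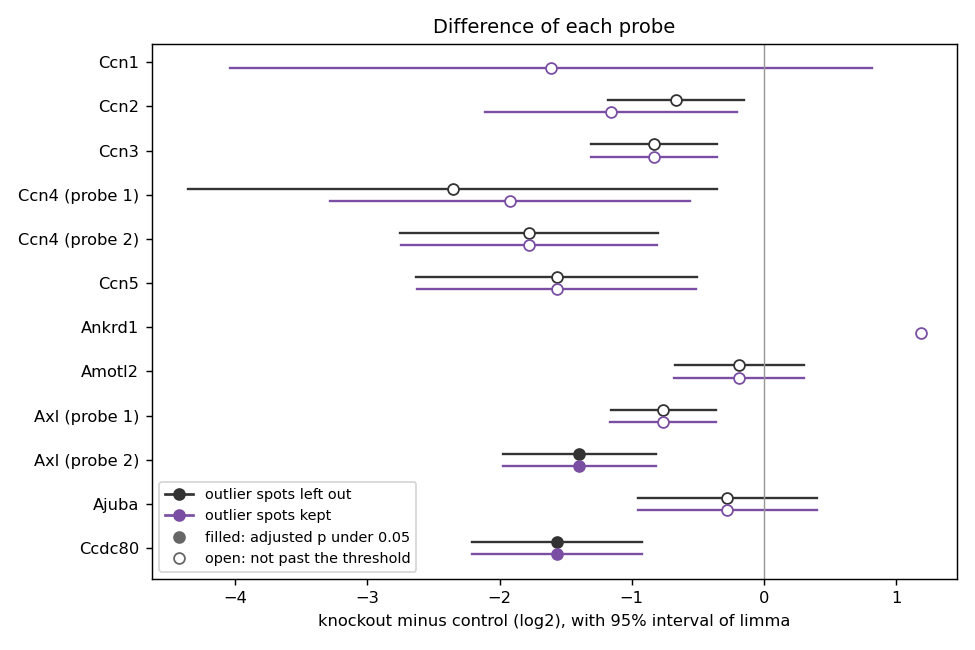
The x axis gives the difference, knockout minus control (log2), of each probe (rows) with its 95% interval in limma, with marked spots left out (black) and kept (purple); filled points have an adjusted p under 0.05 and the point of Ankrd1 has no fit. The probe of Ccdc80 and the second probe of Axl are filled under both treatments of the marked spots, and the intervals of Amotl2, Ajuba and, with marked spots kept, Ccn1 include 0.

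Ccdc80, a secreted protein of stromal cells that binds matrix components, fell clearly. It read 1.53, 1.56 and 1.61 in the controls and -0.59, 0.39 and 0.20 in the knockouts. The controls were nearly identical and all knockouts lay below them. The difference was -1.57 (SE 0.27, 95% interval -2.21 to -0.92), a 2.96-fold lower signal (adjusted p = 0.0390 in limma). With an array left out it ranged from -1.76 to -1.27 and was called in 3 of 6 fits, with adjusted p up to 0.109; the call was lost without control replicate 2, control replicate 3 or knockout replicate 3.

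Axl, the receptor tyrosine kinase that binds GAS6 and takes part in clearing dead cells, was lower at both probes. The brighter one read 2.45, 2.28 and 2.30 in the controls and 1.34, 1.69 and 1.72 in the knockouts. It differed by -0.76 (SE 0.17, 95% interval -1.16 to -0.36) and just missed the threshold (adjusted p = 0.0559 in limma). The dimmer one read -3.37, -3.15 and -3.25 in the controls and -5.15, -4.32 and -4.48 in the knockouts. It differed by -1.40 (SE 0.24, 95% interval -1.98 to -0.82), a 2.63-fold lower signal, and was called (adjusted p = 0.0395 in limma). Both probes carry the same accession and neither overlapped between groups, but their sizes differ. The call of the dimmer one held in 2 of 6 fits with an array left out, those without control replicate 1 (adjusted p = 0.0466 in limma) or knockout replicate 2 (0.0427), and the brighter one was called in none of the 6.

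Amotl2 and Ajuba, proteins that feed back on the pathway, showed no separation. Amotl2, an angiomotin that binds YAP and keeps it out of the nucleus, read -1.01, -1.30 and -1.28 in the controls and -1.73, -1.13 and -1.29 in the knockouts. Its difference was -0.18 (95% interval -0.68 to 0.31, adjusted p = 0.603 in limma), and -0.0099 without knockout replicate 1. Ajuba, a LIM-domain protein that restrains LATS kinases, read -3.84, -3.37 and -3.13 in the controls and -4.17, -3.33 and -3.66 in the knockouts. Its difference was -0.27 (95% interval -0.95 to 0.40, adjusted p = 0.570 in limma), and -0.048 without knockout replicate 1. The intervals leave room for a fall of up to 0.68 for Amotl2 and 0.95 for Ajuba on the log2 scale.

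Ankrd1, a nuclear and sarcomeric ankyrin-repeat protein often read as the reporter of YAP, was near or below background in most samples. It was well above background on 1 control array and 2 knockout arrays, which kept it out of the fit. The controls read -5.83, -4.28 and -6.05 and the knockouts -6.84, -1.72 and -4.03. The lowest and the highest array were both knockouts, and the highest, replicate 2, was a marked spot. The mean difference was 1.19 with that spot kept (exact permutation p = 0.6) and -0.050 without it, so its direction rests on 1 spot. Ankrd1 is also a gene of striated muscle; the summed signal of 8 skeletal muscle markers, in units of the 75th percentile, was 2.33 to 3.00 in the controls and 2.69 to 4.88 in the knockouts, highest in knockout replicate 3. Of these 8 markers 7 were higher in the knockout, and Myh1, a myosin heavy chain, rose by 2.07 (adjusted p = 0.0160 in limma). Myh4, another, differed by 0.99 (adjusted p = 0.0526) and was called with marked spots kept (adjusted p = 0.0496). Their part in the Ankrd1 values was not tested.

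Knockout replicate 1 gave the lowest of the 6 values at 11 of the 12 probes, while 27.5% of the 40172 probes tested with marked spots kept were lowest on that array. Its distance from the mean of the other 2 knockouts was -3.92 for Ccn1, -2.09 and -1.48 for the probes of Ccn4, -1.47 for Ccn2 and -1.14 for Ccn5, beside a median of -0.087 over all those probes. For the dimmer Ccn4 probe and Ccn5 no knockout spot was well above background, so their distances compare signals at background. Only 0.0548% of them had a lower distance than Ccn1 and 1.92% a lower one than Ccn2. Ankrd1 stood at -3.96, where the spot of knockout replicate 1 was not well above background. By contrast, Ccn3 (-0.074) and the brighter probe of Axl (-0.36) kept close to the bulk of the array. The array had the lowest 75th percentile (4911) and the largest share of marked spots (16.0%) of the 6, and the part of these in the low values was not tested. Without it, and with marked spots kept, 11 of the 12 probes were lower in the knockout and Ankrd1 was higher by 2.51 (adjusted p = 0.187 in limma). Of these, 2 were called, Ccdc80 (-1.27, adjusted p = 0.0415) and the dimmer probe of Ccn4 (-1.28, adjusted p = 0.0416), where 0.924% of all probes were. That Ccn4 probe entered this fit through the controls alone and Ankrd1 through the knockouts alone.

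**Figure D3:**
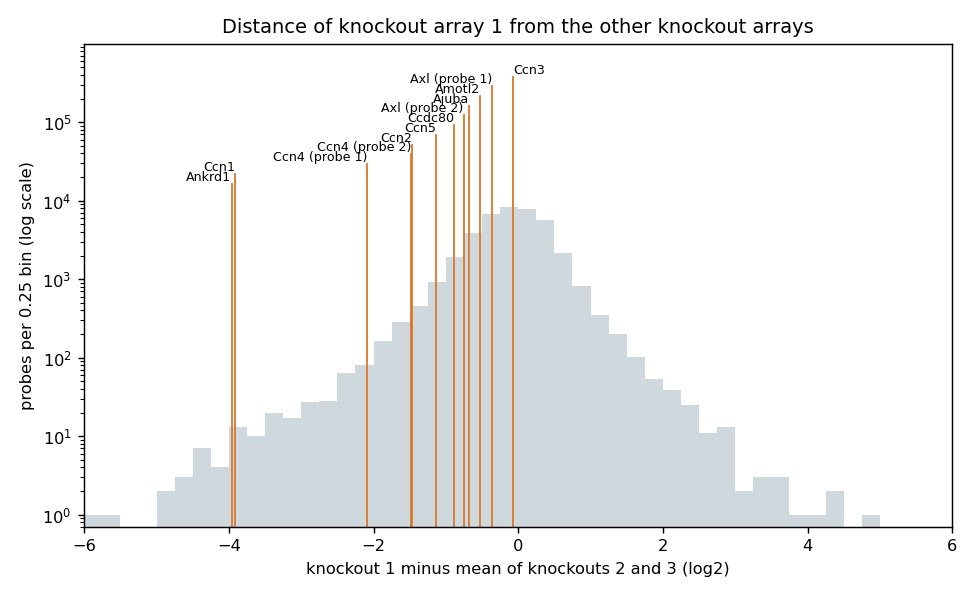
The x axis gives knockout replicate 1 minus the mean of knockout replicates 2 and 3 (log2) and the y axis, on a log scale, the number of probes per bin among the 40172 tested with marked spots kept; orange lines mark the 12 probes, with heights that carry no value. The lines of Ankrd1 (-3.96) and Ccn1 (-3.92) stand in the far left tail and that of Ccn3 (-0.074) in the middle.

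The other genes of the pathway were read from lists chosen with earlier results of these data known, 1 probe a gene (the brightest tested). Over all genes 2.47% were called lower and 1.35% higher. Of 16 other YAP/TEAD targets 12 could be tested, 7 lower and 5 higher, with a median difference of -0.19. The one called was Igfbp3, which binds insulin-like growth factors: it fell by 1.43 (SE 0.22, adjusted p = 0.0321 in limma). Dock5, an activator of Rac, differed by 1.57 (SE 0.32), higher in the knockout, and missed the threshold narrowly (adjusted p = 0.0503); with marked spots kept it passed (adjusted p = 0.0466), where 2.76% of all genes were called lower and 1.71% higher. Lats2, the kinase that YAP induces in a feedback loop, differed by -0.85 (adjusted p = 0.0859), and Rbms3, an RNA-binding protein, by -0.78 (adjusted p = 0.0836). Nt5e, the ectoenzyme CD73, was kept out of the fit by marked spots; with them kept it rose by 1.38 (SE 0.23, adjusted p = 0.0323 in limma), and it is named here after its values were seen.

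Of 21 Hippo pathway components 17 were tested, 13 lower and 4 higher, with a median of -0.29 and none called by limma. An unadjusted p under 0.05 was reached by 8 of the 17, among them Wwc1, which was higher in the knockout. Over all probes 26.8% reached it in either direction. The DNA-binding partners Tead2 differed by -0.94 (adjusted p = 0.0922) and Tead1 by -0.46 (adjusted p = 0.105). Wwc1 (Kibra), an upstream activator of LATS, differed by 2.03 (adjusted p = 0.0903), with control replicate 2 the lowest at -2.02. Among the angiomotin and zyxin-family relatives of Amotl2 and Ajuba 8 of 8 were tested and 6 were lower, with none called by limma at the brightest probe (3 of the 8 had an unadjusted p under 0.05). Amotl1, an angiomotin, differed by -1.24 (adjusted p = 0.0710) and Trip6, a zyxin relative, by -0.82 (adjusted p = 0.0896). A dimmer probe of Limd1, a LIM protein of the Ajuba family, fell by 1.20 (SE 0.19, adjusted p = 0.0339 in limma), while its brightest probe differed by -0.17.

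Among receptors and ligands that work with these genes, single genes fell. Of 11 CCN receptors 10 were tested, 7 lower, with a median of -0.23; Lrp1, the endocytic receptor that binds CCN2, fell by 1.28 (SE 0.16, adjusted p = 0.0245 in limma). Its values were 2.31, 2.04 and 1.95 in the controls and 0.81, 0.84 and 0.81 in the knockouts, so here knockout replicate 1 did not stand apart. Integrin beta 3 (Itgb3), which pairs with the alpha v chain, differed by -0.68 (adjusted p = 0.0562) and integrin alpha 6 (Itga6) by 0.79 (adjusted p = 0.0725). Of the ligands of AXL, Pros1 fell at both probes, by 0.74 (SE 0.14, adjusted p = 0.0468 in limma) and by 1.18 (SE 0.15, adjusted p = 0.0251), whereas Gas6 differed by 0.16 (adjusted p = 0.672). The kinase Tyro3 differed by 0.051 (adjusted p = 0.878). Srpx2, a secreted protein that shares a domain with CCDC80, fell by 1.61 (SE 0.30, adjusted p = 0.0431 in limma), close to Ccdc80 in size, and Srpx by contrast differed by 0.18 (adjusted p = 0.855).

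Other inducers of CCN genes were split. Of 9 genes of the TGF-beta axis 7 were tested and all 7 were lower, where 48.8% of all genes were. Their differences ran from -3.00 to -0.0012, so not all of them fell. With marked spots kept 9 were tested, 7 lower and 2 higher. With median centring 5 of 7 were lower, and 3 of 7 with fibroblast marker centring, described further on. The ligand Tgfb1 fell by 1.49 (SE 0.29, adjusted p = 0.0468 in limma). Of 12 cytoskeletal targets of SRF and its MRTF cofactors 11 were tested and all 11 were higher, by 0.045 to 0.39, with none called by limma (0 of the 11 had an unadjusted p under 0.05). With quantile normalization, with array weights or without knockout replicate 1, 2 of the 11 were lower. Under normexp with quantile normalization 1 of the 11 was lower, and with marked spots kept 1 of 12. Without control replicate 3 or knockout replicate 3 it was 1 of 10. The smooth muscle markers described further on had a median difference of 0.36 (6 tested), and their part in these values was not tested. Of 12 serum-induced immediate early genes 11 were tested, 6 lower and 5 higher, none called. An unadjusted p under 0.05 was reached by 3 of the 11, near the 26.8% of all probes in either direction. Egr2 differed by -1.60 (adjusted p = 0.0667) and Atf3 by 1.36 (adjusted p = 0.125).

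**Figure D4:**
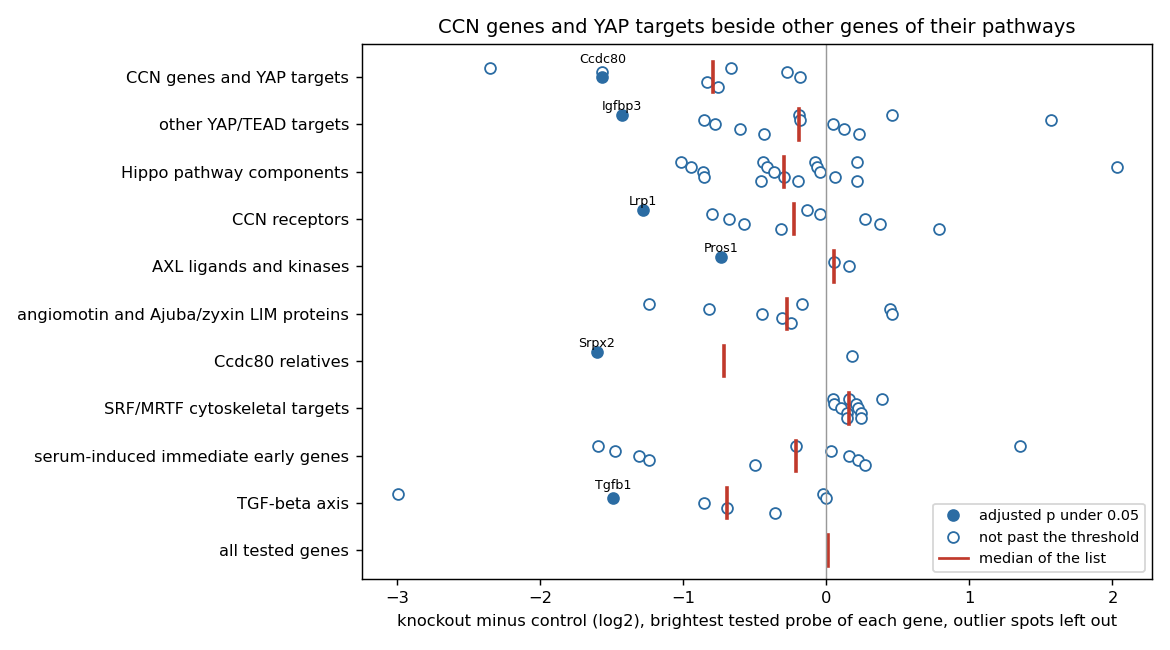
The x axis gives the difference, knockout minus control (log2), of the brightest tested probe of each gene and the rows give the lists; filled points passed an adjusted p of 0.05, and red bars mark the medians. The median is -0.80 for the genes described here, -0.19 for other YAP/TEAD targets and 0.16 for SRF/MRTF targets, and the 6 named points are the called genes, all lower in the knockout.

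Markers of cell types also differed between these samples. The summed signal of 10 fibroblast markers (all 10 well above background on at least 1 array) was 43.5 to 49.9 in the controls and 25.5 to 36.2 in the knockouts, in units of the 75th percentile, and was lowest in knockout replicate 1. With marked spots kept, 9 of the 10 were lower in every knockout than in every control, as were 17.6% of all probes tested, and the median difference was -0.78. With marked spots left out, none of the 9 tested was called by limma, and 6 of them had an unadjusted p under 0.05, against 26.8% of all probes in either direction. The 7 endothelial markers summed to 9.16 to 10.6 in the controls and 2.51 to 6.15 in the knockouts, again lowest in knockout replicate 1, with 6 of 7 not overlapping. Macrophage markers summed to 16.1 to 24.8 in the controls and 9.09 to 14.9 in the knockouts, and mesothelial markers to 1.41 to 1.75 and 0.636 to 1.71. Neutrophil markers summed to 24.1 to 25.8 in the controls and 17.0 to 18.8 in the knockouts. Of the 6 tested 5 were called lower by limma, where 2.47% of all genes were, with a median of -3.79. These were Retnlg (-4.47), S100a8 (-3.92), Mmp8 (-3.85), S100a9 (-3.73) and Cxcr2 (-1.93), whereas the bright Csf3r differed by 0.17 (adjusted p = 0.483) and Ly6g, with marked spots kept, by 0.78 (adjusted p = 0.106). With an array left out, 0 of 4 were called without control replicate 2 (0.214% of all genes) and 1 of 4 without control replicate 3 (0.297%). It was 1 of 6 without knockout replicate 3 (0.159%) and 4 or 5 of 6 in the other fits. Epithelial markers were the reverse, with 18.2 to 53.3 in the controls and 62.3 to 80.7 in the knockouts, as were smooth muscle markers, with 44.4 to 55.1 and 62.1 to 72.1. The epithelial sum of control replicate 2 (18.2) lay far below those of control replicates 1 (53.3) and 3 (41.9). The median difference of the epithelial markers was 1.00 (6 tested), and 0.42 without control replicate 2 (4 tested). In bulk tissue fewer cells of a type and less RNA per cell cannot be told apart.

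When each array was centred on its mean over the 10 fibroblast markers, an alternative added after the data were seen, and marked spots were left out, the median of all genes shifted to 0.83. On that scale Ccdc80 differed by -0.72 (adjusted p = 0.0568 in limma), the dimmer Axl probe by -0.55 (adjusted p = 0.123), the dimmer Ccn4 probe by -0.93 (adjusted p = 0.0430) and Ccn2 by -0.14 (adjusted p = 0.747). The brighter Ccn4 probe differed by -1.45 (adjusted p = 0.0545). With marked spots kept, it differed by -1.07 and was called (adjusted p = 0.0365 in limma), Ccn2 by -0.31 (adjusted p = 0.474) and Ccn1 by -0.76 (adjusted p = 0.221). On this scale 37.9% of all probes were called with marked spots left out, 3.94% of these lower, and 45.7% with them kept. The dimmer Ccn4 probe entered the fit through the controls alone. With marked spots left out, Ccn3 stood at 0.018, the brighter Axl probe at 0.091, Ajuba at 0.58 and Amotl2 at 0.67, each less than the shift of all genes. By their brighter probes, 4 of the 8 genes tested were lower and 4 higher relative to the fibroblast markers, where 8.93% of all genes tested were lower. The part of cell makeup in the differences between genotypes was not tested.

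**Figure D5:**
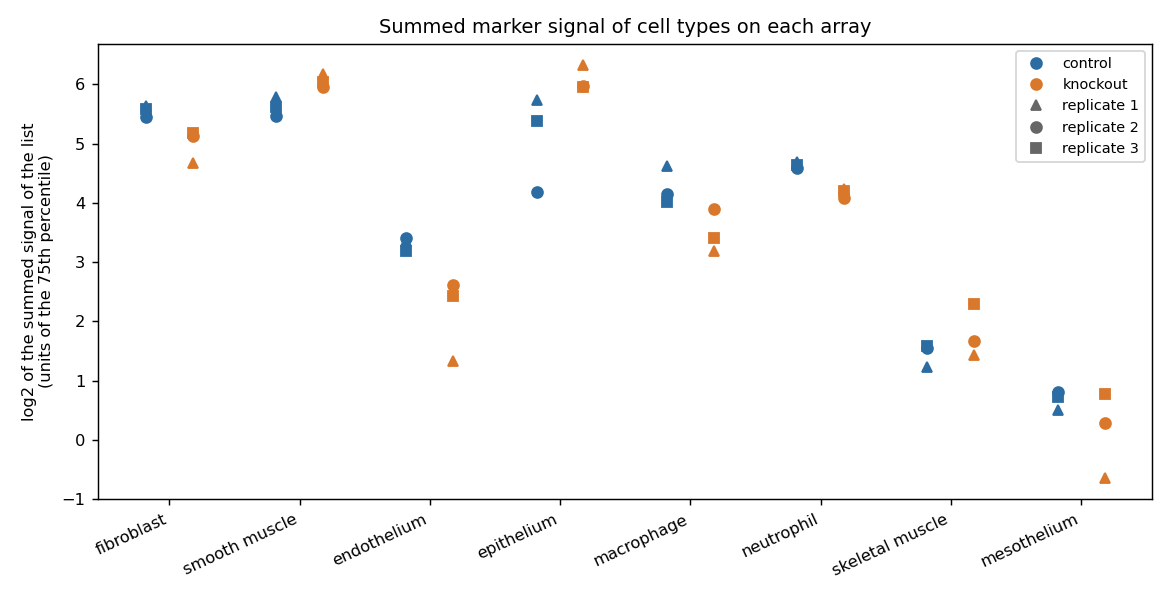
The y axis gives the log2 of the summed signal of each marker list (x axis) on each array, in units of the 75th percentile, with controls in blue, knockouts in orange and symbols for replicates. Fibroblast and endothelial sums are lower on all knockout arrays and lowest on replicate 1, and epithelial and smooth muscle sums are higher on all of them.

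The genes whose pattern over the 6 arrays was most like that of Ccn2 were Rasl11a (Pearson r = 0.999), Il1r2 (0.998), Kdr (0.997), Pcdhb7 (0.996) and Syt17 (0.995), among 16772 named genes well above background on all arrays. Kdr, the VEGF receptor of endothelium, read 0.77, 0.91 and 0.78 in the controls and -0.75, 0.23 and 0.33 in the knockouts. For Ccn1 they were Rgma (0.998), Cdr1os (0.993), Pgbd5 (0.992), Gm16404 (0.992) and Eml2 (0.991). All 5 were lowest in knockout replicate 1: Rgma read 0.31, 0.36 and 0.19 in the controls and -0.88, 0.12 and 0.20 in the knockouts. Over 0.95 in r lay 535 genes for Ccn2 and 117 for Ccn1. These are descriptions over 6 arrays that share the genotype split, with marked spots kept. Ccn1 and Ccn2 were both lowest in knockout replicate 1, so that array weighs heavily in r. Its Ccn2 spot was marked, and so were spots of Rasl11a on 2 arrays, of Pgbd5 on 2 and of Gm16404 on 4.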

How the data were processed

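RNA was extracted with TRIzol, amplified and labelled, per the labels' protocols. The authors' deposited scanner files hold an intensity per spot on a linear scale (the processed signal), made by Agilent Feature Extraction 11.5.1.1 with array design 074809, as the deposited file headers state; the submitters' processing notes name version 10.7. The labels name Cy3 and a green column, whereas the files hold the red channel, which was used. No spot was saturated. Groups were taken from the genotype label.

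Each array's log2 processed signal was centred on its 75th percentile over non-control spots, spots marked as non-uniform or population outliers were left out, and spots of a probe were averaged. Tested were probes that passed the scanner's background test on every array of one genotype or both and kept 2 usable values or more per genotype. Probes were named through RefSeq accessions in GRCm38.p6 (33767 of 56605 probes, 23462 genes). limma 3.58.1 in R 4.3.3 gave moderated two-sided tests with Benjamini-Hochberg adjustment, and the fit was tested on simulated data. Where nothing says how the mice were bred or housed, p-values measure the spread between these 6 arrays only, and that number limits the precision.

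The 10 genes and all lists were chosen with earlier results of these data known. Named from the pathway lists were the called genes and at most 4 of the lowest unadjusted p in each, and, for Ccn1 and Ccn2, the 5 genes of highest Pearson correlation; 1 gene that this names is not reported here. Nt5e, Limd1's second probe and single cell type markers were named after their values were seen. Alternatives were marked spots kept, normexp (offset 50) with quantile normalization, quantile normalization, median centring, no filter on dim probes, array weights, the deposited value table, the mean of a gene's probes, each array left out and, added after seeing the data, fibroblast marker centring and marked spots kept under every other setting. The deposited value table held the processed signal of the same arrays (lowest correlation of log2 values 0.999999).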

Additional observations from a re-analysis of the deposited data

How the results depend on the processing

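The count of called probes (2 among the 10 tested, where 3.97% of all probes were called) became 4 under normexp with quantile normalization (7.84% of all probes), 4 under quantile normalization (6.18%), 4 under median centring (6.36%), 7 with array weights (23.0%), 1 under fibroblast marker centring (37.9%) and 0 with no filter on dim probes (0.935%), and ranged from 0 to 2 with an array left out. It was 0 without control replicate 2, control replicate 3 or knockout replicate 3. Of the 80 pathway genes tested, 5 were called, all lower (6.25%, against 3.82% of all genes). Under the same settings the count was 14 (17.5% against 8.02%), 9 (11.2% against 5.89%), 9 (11.2% against 6.07%), 19 (23.8% against 24.3%), 23, of which 22 higher (28.7% against 38.0%), and 1 of 82 (1.22% against 0.944%). It was 3 with the mean of a gene's probes, and 0 to 5 with an array left out (1 without knockout replicate 1 and 0 without control replicate 2, control replicate 3 or knockout replicate 3). The dimmer Axl probe lost its call under fibroblast marker centring (-0.55) and with no filter (-1.40, adjusted p = 0.0600 in limma), as did Ccdc80 (-0.72, and -1.57 with adjusted p = 0.0600). With an array left out Axl ranged from -1.56 to -1.14 and Ccdc80 from -1.76 to -1.27. Fibroblast marker centring turned the direction of Ccn3 (0.018), Amotl2 (0.67), the brighter Axl probe (0.091) and Ajuba (0.58). Array weights turned Amotl2 (0.0066). Ankrd1 turned to -0.050 with marked spots left out and without knockout replicate 2, and was 2.51 without knockout replicate 1. The dimmer Ccn4 probe and the brighter Axl probe gained calls under normexp with quantile normalization, quantile normalization, median centring and array weights. Ccn2, Ccn3 and Ccn5 gained them with array weights. The dimmer Ccn4 probe was also called under fibroblast marker centring and without knockout replicate 1. This probe and Ccn5 entered each of these fits through the controls alone, so their calls compare control signal with background. With marked spots kept, Ccn2 was not called with array weights (adjusted p = 0.0597 in limma), the brighter Ccn4 probe was called with them (0.0300) and under fibroblast marker centring (0.0365), and the brighter Axl probe was not called under median centring (0.0519). Of all probes 23.7% were called with array weights and 45.7% under fibroblast marker centring, marked spots kept. Over all probes 1403 were called (60.9% lower), against 484 with no filter, where more probes were tested, 2773 under normexp with quantile normalization, 2185 under quantile normalization, 2249 under median centring, 8119 with array weights (49.3% lower), 13409 under fibroblast marker centring (3.94% lower) and 40 to 2114 with an array left out. Apart from the filter, the cause was not tested. No paired analysis was possible because the labels give the samples no replicate numbers, and the numbers used here only name the arrays.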
